A study of Mus musculus with 12 samples.

Results

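The olfactory receptor genes of the mouse were examined for mCH, methylation at cytosines outside CG dinucleotides, in 12 whole-genome bisulfite libraries of mouse cortex. All genes with a symbol made of Olfr and a number were taken, and 111 of the 1095 such genes in the tables had at least 500 non-CG cytosine calls in every library. These 111 genes were tested one by one, and the other 984 were used only as pooled calls. Bisulfite treatment leaves methylated cytosines unchanged and makes unmethylated ones read as thymine, which sorts every call into methylated or unmethylated. The level of a gene is its methylated calls as a percentage of its non-CG calls, so that it does not scale with gene length.

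All mice were C57BL/6 and all tissue was cortex. The first comparison set 4 libraries with the genotype label miR29 KO against 4 wild-type (WT) libraries, all at postnatal day 40 (P40). The second set 2 libraries with the genotype label Dnmt3a mi5, whose titles read DNMT3AmiR29MUT, against 2 WT libraries, all at 4 months. The labels name no Cre driver, no deleted miR-29 gene and no cell type, and say of the replicates only that they are separate samples. The p-values therefore reflect sample-to-sample spread, which may be technical. In whole cortex, a change in every cell and a change in the share of some cells cannot be told apart.

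Olfactory receptors are odorant-binding receptors coupled to G proteins. Each olfactory sensory neuron of the nose uses a single receptor gene, and the rest of this very large family lies silent in heterochromatin; in cortex the genes are regarded as silent. The genes have short coding regions, sit in arrays of close copies on many chromosomes, and are divided into class I (the fish-like receptors) and class II (the others). mCH is laid down by the DNA methyltransferase Dnmt3a in neurons during the weeks after birth. The miR-29 microRNAs repress Dnmt3a by pairing of their seed with its messenger RNA.

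The mature strands of the 3 miR-29 family members are shown because the KO label and the Dnmt3a mi5 titles name miR-29. Which members the KO libraries lack is not given. Capitals mark bases 2 to 8, the seed, which all of them share (RefSeq, GRCm38.p6).
mmu-miR-29a-3p: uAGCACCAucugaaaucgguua
mmu-miR-29b-3p: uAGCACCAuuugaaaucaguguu
mmu-miR-29c-3p: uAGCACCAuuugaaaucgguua

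Promoters of 3 receptor genes are shown to set the sequence of genes with a large gain beside one without. Olfr330 rose in both mutants whichever library was left out. Olfr536 was the only receptor gene still called higher at P40 after each library was centred on its median gene, beside 207 of all 19826 genes. Olfr872 is the most deeply covered receptor gene of a cluster with low mCH described further on. Each runs 5′ to 3′ from 250 bases before to 50 bases after the RefSeq start on GRCm38.p6. Olfr330 is at chr11:58534776-58535075 (minus strand), Olfr536 at chr7:140507269-140507568 (minus strand) and Olfr872 at chr9:20236912-20237211 (plus strand). Capitals mark TAATTA, the core bound by LIM-homeodomain factors such as Lhx2.
Olfr330: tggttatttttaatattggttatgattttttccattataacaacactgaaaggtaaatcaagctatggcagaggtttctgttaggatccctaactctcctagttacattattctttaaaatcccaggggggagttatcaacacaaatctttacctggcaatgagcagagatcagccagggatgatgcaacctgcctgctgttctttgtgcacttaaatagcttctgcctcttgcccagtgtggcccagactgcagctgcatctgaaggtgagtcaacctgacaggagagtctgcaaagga
Olfr536: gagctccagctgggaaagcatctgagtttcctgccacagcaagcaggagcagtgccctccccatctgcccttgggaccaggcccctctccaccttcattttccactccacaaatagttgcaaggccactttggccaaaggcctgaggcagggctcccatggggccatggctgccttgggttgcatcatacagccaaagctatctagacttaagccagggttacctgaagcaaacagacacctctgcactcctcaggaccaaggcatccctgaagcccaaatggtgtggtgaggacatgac
Olfr872: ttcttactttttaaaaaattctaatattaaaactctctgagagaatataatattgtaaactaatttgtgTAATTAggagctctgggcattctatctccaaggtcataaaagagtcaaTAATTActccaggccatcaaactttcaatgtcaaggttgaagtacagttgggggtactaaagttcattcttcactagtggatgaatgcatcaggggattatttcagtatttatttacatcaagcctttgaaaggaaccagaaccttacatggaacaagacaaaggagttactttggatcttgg

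None of these 3 windows holds a CG, and their G and C content is 43.0% for Olfr330, 56.3% for Olfr536 and 34.0% for Olfr872. Windows of the same length were listed for 97 of the 111 genes, with a median of 1 CG, against 7 for all 27025 promoters listed. Median G and C content was 35.0% over the 940 receptor gene windows and 52.7% over all promoters. TAATTA, searched on both strands, was in 21.6% of the 97 windows, in 18.7% of those of all receptor genes listed and in 5.31% of all promoters. The palindromic core recognised by Ebf factors, also searched on both strands, was in 0 of the 97, in 0.532% of the receptor gene windows and in 0.914% of all promoters. A match is a description of the letters only.

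Non-CG calls over all genes numbered 399563492 to 732985426 per library. Calls on the receptor genes were few: the median of the 111 genes had 2488 to 3020 calls at P40 and 1795 to 2060 at 4 months, against 11864 to 14324 and 6848 to 8384 for all 19826 genes with 500 calls in every library. For Olfr920 in the first P40 WT library, 24 of 2993 calls were methylated, a level of 0.802% with a 95% Wilson interval of 0.539% to 1.19%, which covers counting error only. The annotated miR-29 genes had 6 to 69 calls together in miR29 KO libraries and 121 to 244 in WT P40 libraries, and 106 to 129 in Dnmt3a mi5 libraries and 151 to 200 in WT 4-month libraries. Among the miR29 KO libraries, replicate 4 had the lowest mean level over all genes, 1.72%. In 1 library of each group, calls over Y-linked genes were few. Receptor genes resemble each other in sequence, and the sources used here do not give how reads were divided between close copies. Each gene's calls are therefore uncertain, and the similarity was not measured.

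Mean mCH over the 111 receptor genes was higher in both mutants than in their WT libraries. At P40 it was 2.16%, 1.98%, 1.87% and 1.34% in miR29 KO libraries, against 0.997%, 1.30%, 1.18% and 0.972% in WT libraries. Every KO library lay above every WT library, with KO replicate 4 closest to them. The group means were 1.84 ± 0.355% in KO and 1.11 ± 0.155% in WT (SD, n = 4 each), a ratio of 1.65. At 4 months the mean was 1.68% and 1.52% in Dnmt3a mi5 libraries and 0.883% and 0.903% in WT libraries, a ratio of 1.79. All genes tested had ratios of 1.56 at P40 and 1.77 at 4 months, so as a ratio the receptor genes differed by about as much as genes in general. In percentage points, mutant minus WT was 0.724 for receptor genes and 0.770 for all genes at P40. At 4 months it was 0.704 for receptor genes and 1.01 for all genes.

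The level itself was below that of the average gene in every library. The mean of the receptor genes was 0.846 of the mean over all genes in miR29 KO libraries and 0.799 in WT P40 libraries. It was 0.685 of it in Dnmt3a mi5 libraries and 0.678 in WT 4-month libraries. The 984 genes with too few calls to be tested one by one, pooled within each library, showed a like ratio: they stood at 1.59% in miR29 KO and 0.951% in WT libraries at P40, a ratio of 1.67. At 4 months they stood at 1.39% in Dnmt3a mi5 and 0.784% in WT libraries, a ratio of 1.77.

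**Figure D1:**
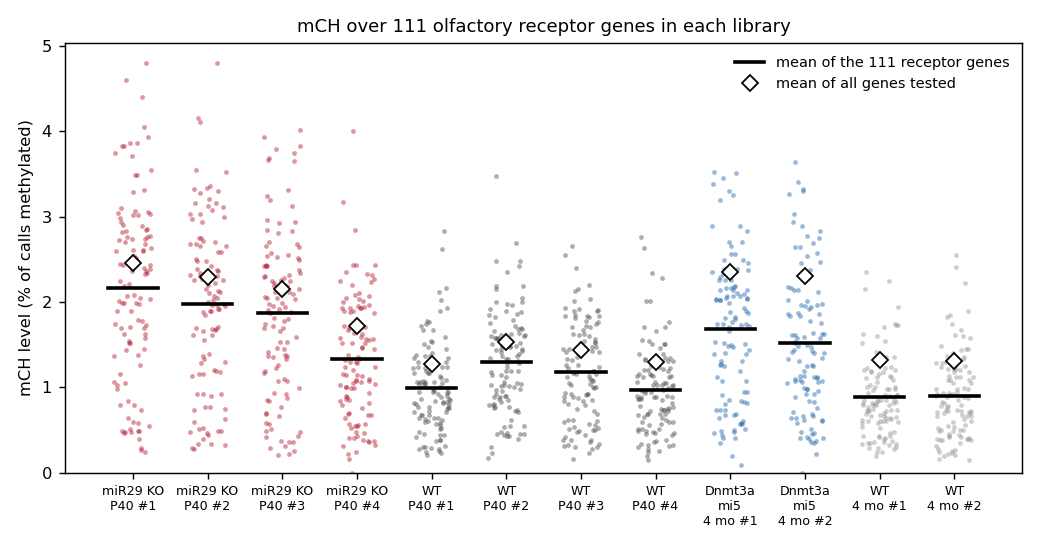
mCH level in percent (y axis) of the 111 olfactory receptor genes in each of the 12 libraries (x axis); points are genes, bars their mean and diamonds the mean of all genes tested. Bars run from 1.34% to 2.16% in miR29 KO and from 0.972% to 1.30% in WT libraries at P40, and lie below the diamond in every library.

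Gene by gene at P40, 71 of the 111 receptor genes rose in miR29 KO cortex and 0 fell (quasi-binomial model with limma's moderated dispersion, Benjamini-Hochberg adjusted p under 0.05 over all genes; 72 passed 0.05 unadjusted, all higher; limma on log2(percent + 0.1) called 65 higher and 0 lower). Over all 19826 genes 76.5% rose and 0.0454% fell, so the share of receptor genes that rose was below the background. With limma on log2(percent + 0.1), 15204 of all genes rose and 15 fell. The median log2 odds ratio was 0.73 for receptor genes and 0.65 for all genes. A positive one was found in 103 of the 111 receptor genes (92.8%), against 95.9% of all genes. Of the 37 genes with most calls 29 rose, of the middle 37 by calls 21, and of the 37 with fewest calls 21. After each library was centred on its median gene, the median log2 odds ratio of all genes was -0.03 and that of receptor genes 0.05. In that fit only Olfr536 was called higher and Olfr18 lower, beside 207 higher and 704 lower of all 19826 genes.

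The largest rises at P40 among called genes whose libraries did not overlap were those of Olfr1355, Olfr983, Olfr1508, Olfr536, Olfr1353, Olfr180, Olfr920 and Olfr913, all class II receptors. Their log2 odds ratios ran from 1.53 for Olfr1355 to 0.998 for Olfr913. Olfr1355 and Olfr1353 belong to the same short run of receptor genes. Olfr983, Olfr920 and Olfr913 share the cluster from Olfr160 to Olfr986. Libraries of KO and WT did not overlap for 29 receptor genes with KO higher, and for 57.1% of all genes.

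Olfr536 had levels of 3.93%, 3.11%, 3.32% and 2.05% in miR29 KO libraries, against 1.09%, 1.57%, 1.67% and 1.22% in WT libraries. Every KO library was above every WT library. Its log2 odds ratio was 1.23 ± 0.206 (SE), with an adjusted p of 6.7e-05 in the quasi-binomial fit with limma.

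Olfr180 had levels of 2.84%, 3.16%, 2.54% and 2.27% in KO libraries and 1.23%, 1.49%, 1.47% and 0.902% in WT libraries. The groups did not overlap. Its log2 odds ratio was 1.10 ± 0.242 (SE), with an adjusted p of 0.000516 in the same fit.

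Olfr1508 lies next to Olfr1507 and had 1.78%, 1.33%, 2.11% and 0.988% in KO libraries, against 0.447%, 0.891%, 0.590% and 0.731% in WT libraries. KO replicate 4 came within the reach of the WT spread but stayed above all WT values. The log2 odds ratio was 1.34 ± 0.303 (SE), adjusted p 0.000656 in the same fit.

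At 4 months, 24 of the 111 receptor genes rose in Dnmt3a mi5 cortex and 0 fell, where 58.8% of all genes rose and 0.0% fell; 39 receptor genes passed 0.05 unadjusted, all higher, and limma on log2(percent + 0.1) called 52 higher and 1, Olfr378, lower. The median log2 odds ratio was 0.78 for receptor genes and 0.83 for all genes. Again 103 of 111 were positive (92.8%), against 95.9% of all genes. Of the 37 genes with most calls 15 rose, of the middle 37 by calls 5, and of the 37 with fewest 4. Without WT replicate 1 only 3 receptor genes were called, Olfr288, Olfr330 and Olfr56. The count was 6 without WT replicate 2, 13 without Dnmt3a mi5 replicate 1 and 39 without miR29 KO replicate 4, a library that enters only through the shared estimate of the spread. The count over all genes also fell without either WT replicate or Dnmt3a mi5 replicate 1, and rose from 11649 to 13328 without miR29 KO replicate 4. With each library centred on its median gene, 0 receptor genes were higher and 0 lower, where 0 of all genes were higher and 7 lower. Of the 24, 23 had also risen in miR29 KO. Over all genes, 11250 of the 11649 that rose at 4 months were also called at P40. The receptor gene not called at P40, Olfr119, had a P40 log2 odds ratio of 0.49 (adjusted p 0.143 in the quasi-binomial fit).

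The largest rises at 4 months among called genes with separate libraries were those of Olfr119, Olfr330, Olfr1097, Olfr180, Olfr32, Olfr181, Olfr536 and Olfr46. Olfr330 had 3.51% and 3.64% in Dnmt3a mi5 libraries, against 0.976% and 1.14% in WT libraries. At P40 it had 3.72%, 4.80%, 2.85% and 4.00% in miR29 KO libraries, against 2.03%, 2.002%, 2.04% and 2.33% in WT libraries. The groups were separate at both ages, with log2 odds ratios of 1.79 ± 0.411 at 4 months (adjusted p 0.00312) and 0.92 ± 0.166 at P40 (SE, adjusted p 0.000102).

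In Olfr119, the first Dnmt3a mi5 library was far above the others: the levels were 2.33% and 0.844% in Dnmt3a mi5 libraries and 0.306% and 0.561% in WT libraries. Olfr180 and Olfr181 are next to each other in gene order. Olfr180 had 1.72% and 2.46% in Dnmt3a mi5 libraries and 0.808% and 0.590% in WT libraries, and Olfr181 had 2.83% and 2.75% against 1.15% and 0.830%. Libraries did not overlap for 76 receptor genes with Dnmt3a mi5 higher, against 86.2% of all genes, and for 2 with it lower, Olfr18 and Olfr378, against 1.03% of all genes. Of the 7 named here other than Olfr330, Olfr536 lost its call only without WT replicate 1 (adjusted p 0.0649), and the others lost it when either WT library was left out. Olfr119 also lost it without Dnmt3a mi5 replicate 1, Olfr180 and Olfr32 without Dnmt3a mi5 replicate 2, and Olfr1097 without either of these.

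**Figure D2:**
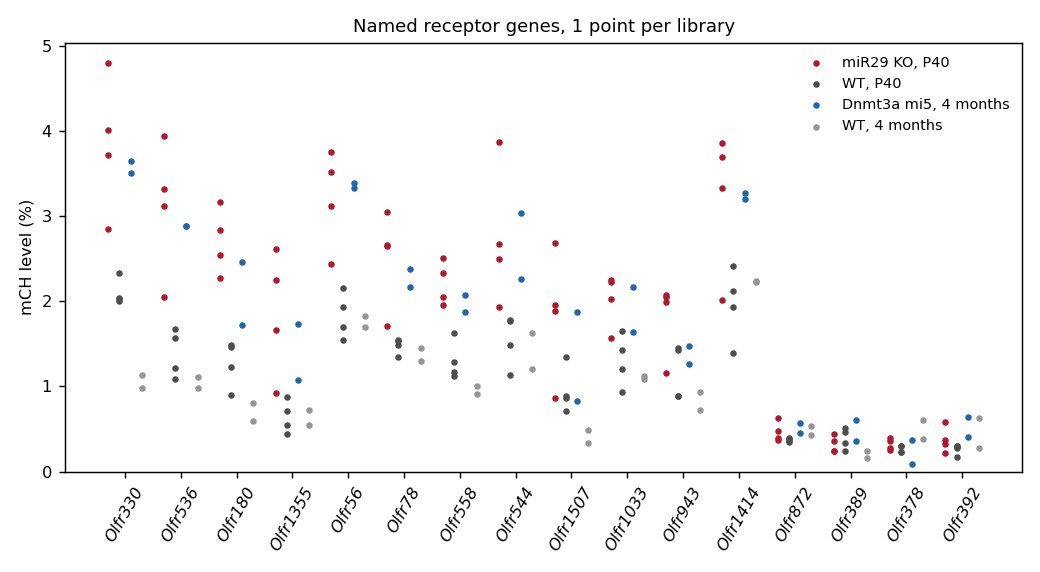
mCH level in percent (y axis) of 16 named receptor genes (x axis), 1 point per library, with each mutant left of its WT group. Olfr330 runs from 2.85% to 4.80% in miR29 KO and from 2.002% to 2.33% in WT at P40, while Olfr389, Olfr378 and Olfr392 stay below 0.7% in all libraries.

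Of the 18 receptors listed for a known ligand or a role outside the nose, 4 had enough calls, and all 4 rose at P40, as did 76.5% of all genes: Olfr78, Olfr544, Olfr558 and Olfr1507. Olfr78, a class I receptor for short-chain fatty acids found in blood vessels and the carotid body, had 3.04%, 2.66%, 2.65% and 1.71% in miR29 KO libraries. In WT libraries it had 1.34%, 1.54%, 1.48% and 1.54%. KO and WT did not overlap, and the log2 odds ratio was 0.80 ± 0.157 (SE, adjusted p 0.000188 in the quasi-binomial fit with limma). At 4 months it had 2.38% and 2.16% in Dnmt3a mi5 libraries and 1.29% and 1.45% in WT libraries (log2 odds ratio 0.75, adjusted p 0.0276), a call lost without any one of these 4 libraries. Olfr78 overlaps Olfr560 in the annotation, and Olfr32 overlaps Olfr1270, so their calls are shared.

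Olfr558, another class I receptor that responds to short-chain acids, had 2.51%, 2.34%, 2.04% and 1.96% in miR29 KO libraries and 1.17%, 1.29%, 1.62% and 1.12% in WT libraries. At 4 months it had 2.07% and 1.87% in Dnmt3a mi5 libraries and 1.01% and 0.908% in WT libraries. It rose in both (log2 odds ratios 0.79 and 1.05, adjusted p 0.000294 and 0.00692), the second call being lost without either 4-month WT library. Olfr544, a class I receptor for azelaic acid, averaged 2.74 ± 0.813% in KO and 1.54 ± 0.303% in WT libraries at P40 (SD, n = 4 each). Olfr1507, the class II receptor MOR28 used in many studies of receptor choice, averaged 1.85 ± 0.745% in KO and 0.949 ± 0.274% in WT libraries. Its lowest KO library, at 0.866%, lay inside the WT range, while Olfr544 had separate groups. At 4 months the adjusted p was 0.0827 for Olfr544 and 0.0758 for Olfr1507.

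At P40 76.5% of all genes rose and at 4 months 58.8%. Of 10 class I genes 8 rose at P40 and 2 at 4 months, with medians of 0.73 and 0.82. Of 100 class II genes 62 rose at P40 and 22 at 4 months, with medians of 0.73 and 0.77. The remaining gene had no class in the annotation.

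The genes with most calls were Olfr56, Olfr1033, Olfr872, Olfr943 and Olfr78, and 4 of these 5 rose at P40, as did 76.5% of all genes. Olfr56, with a mean of 49928 calls per library, had 3.38% and 3.33% in Dnmt3a mi5 libraries and 1.70% and 1.83% in WT 4-month libraries. Its log2 odds ratios were 0.95 ± 0.243 at 4 months and 0.84 ± 0.136 at P40 (SE, adjusted p 0.00435 and 5.9e-05). Olfr1033 averaged 2.02 ± 0.318% in miR29 KO and 1.30 ± 0.310% in WT libraries, and Olfr943 averaged 1.82 ± 0.441% and 1.16 ± 0.316% (SD, n = 4 each). Both rose at P40, with log2 odds ratios of 0.66 and 0.69. Centring turned both to the other sign, -0.021 for Olfr1033 and -0.00261 for Olfr943, neither called.

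Olfr872, with a mean of 12727 calls, was the exception. Its levels were 0.389%, 0.633%, 0.474% and 0.368% in miR29 KO libraries, against 0.388%, 0.392%, 0.341% and 0.365% in WT libraries. At 4 months they were 0.567% and 0.457% in Dnmt3a mi5 libraries and 0.428% and 0.531% in WT libraries. The groups overlapped at both ages, with log2 odds ratios of 0.32 ± 0.261 and 0.12 ± 0.410 (SE, adjusted p 0.266 and 0.803). In the first P40 WT library its 95% Wilson interval was 0.301% to 0.499%, an interval that lies wholly below 1%.

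**Figure D3:**
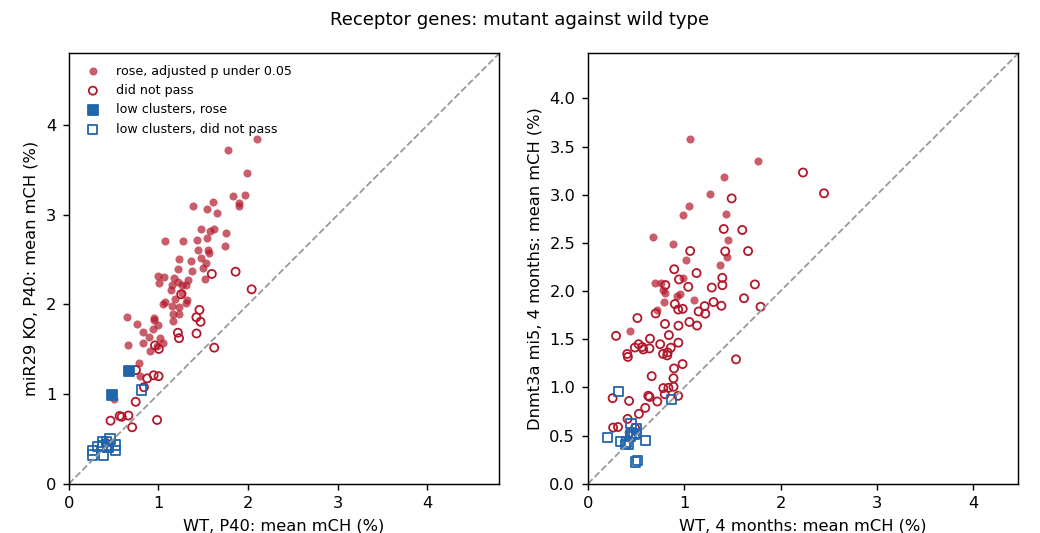
Mean mCH level in percent of each of the 111 receptor genes in the mutant (y axis) against its WT group (x axis), at P40 on the left and at 4 months on the right; the dashed line marks equal levels and squares are the 16 genes of the low clusters. Circles lie mostly above the line. Most squares lie close to it, except Olfr20 (1.26% in miR29 KO and 0.668% in WT) and Olfr1 (0.987% in miR29 KO and 0.487% in WT at P40, 0.957% in Dnmt3a mi5 and 0.315% in WT at 4 months).

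Levels went with position in the genome. In RefSeq gene order on GRCm38.p6, 966 of the 1095 receptor genes fall into 23 clusters of at least 10 genes, joined where at most 5 other protein-coding genes lie between, and 96 of the 111 tested genes are in them. The order of genes was used without coordinates, since the tables were made on mm9. Cluster membership accounted for 39.8% of the variance of WT P40 levels among all 966 genes in clusters, tested or not. Pooled cluster levels kept their order between WT ages (Spearman rho 0.92 over 23 clusters, which share libraries). Across the 111 genes, the WT P40 level and that of the nearest gene outside the family had r = 0.11 and rho = 0.16.

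The highest cluster, from Olfr1396 to Olfr1380 (19 genes, most calls from Olfr56), stood at 3.48%, 3.33%, 2.97% and 2.31% in miR29 KO libraries, against 1.47%, 2.06%, 1.82% and 1.62% in WT libraries. The largest, from Olfr987 to Olfr1274 (219 genes), stood at 2.35%, 2.18%, 2.001% and 1.39% in KO libraries and 1.02%, 1.36%, 1.21% and 0.953% in WT libraries. Both were separate at P40. At 4 months the largest cluster had 1.80% and 1.60% in Dnmt3a mi5 libraries and 0.915% and 0.963% in WT libraries, also separate.

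In 3 clusters mCH was low in all groups, and in 2 of them it was nearly equal in mutant and WT. They were singled out after their values were seen, by a mean WT P40 level under 0.5%, so no test was made on them. The cluster from Olfr338 to Olfr368 (27 genes) stood at 0.453%, 0.414%, 0.363% and 0.309% in miR29 KO libraries, against 0.408%, 0.486%, 0.295% and 0.415% in WT libraries. The cluster from Olfr24 to Olfr18 (35 genes, 8 tested) stood at 0.430%, 0.427%, 0.472% and 0.372% in KO and 0.432%, 0.434%, 0.405% and 0.426% in WT libraries. In both, KO and WT libraries overlapped, and the ratio of mutant to WT was 0.960 and 1.002 at P40 and 1.02 and 1.06 at 4 months. The cluster from Olfr20 to Olfr412 (30 genes, 8 tested) stood at 0.526%, 0.600%, 0.482% and 0.450% in KO and 0.379%, 0.468%, 0.409% and 0.350% in WT libraries, with overlap only between KO replicate 4 and WT replicate 2 and a ratio of 1.28, above the lowest ratio among the other 20 clusters. At 4 months it had 0.489% and 0.579% in Dnmt3a mi5 and 0.421% and 0.410% in WT libraries, again a ratio of 1.28, and was separate.

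Pooled over these 92 genes, the level was 0.447 ± 0.0414% in miR29 KO and 0.413 ± 0.0285% in WT libraries at P40 (SD, n = 4 each), a ratio of 1.08. At 4 months it was 0.464% and 0.470% in Dnmt3a mi5 and 0.412% in both WT libraries, a ratio of 1.13. The other 1003 receptor genes stood at 1.88 ± 0.366% in KO and 1.11 ± 0.157% in WT libraries at P40, a ratio of 1.69. Their ratio at 4 months was 1.80, from means of 1.68% in Dnmt3a mi5 and 0.933% in WT libraries. For scale, the gene at the 1st percentile of all tested genes had 0.2185% to 0.2873% in the 12 libraries, a level that includes cytosines the bisulfite failed to convert; conversion rates were not used here.

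Of the 16 tested genes in the low clusters, 2 rose at P40 and 0 at 4 months, while 69 and 24 of the other 95 did, beside 76.5% and 58.8% of all genes. Median log2 odds ratios were 0.21 and 0.08 for the 16, and 0.80 and 0.89 for the 95. Olfr1 and Olfr20 were the 2 that rose. Olfr20 had 1.58%, 1.37%, 1.26% and 0.815% in miR29 KO libraries and 0.635%, 0.925%, 0.475% and 0.638% in WT libraries (log2 odds ratio 0.91, adjusted p 0.0108). Olfr1 averaged 0.987 ± 0.340% in KO and 0.487 ± 0.125% in WT libraries (SD, n = 4 each), and its call was lost without KO replicate 2 or 4 or WT replicate 3 or 4.

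Olfr18, at the edge of its cluster, was the only receptor gene whose KO libraries were all lower than WT, against 0.0504% of all genes. It had 0.463%, 0.279%, 0.416% and 0.316% in miR29 KO libraries and 0.482%, 0.475%, 0.536% and 0.588% in WT libraries. Its log2 odds ratio was -0.49 ± 0.260 (SE), and the adjusted p of 0.0930 did not pass. The lowest WT levels, averaged over both ages, belonged to Olfr389, Olfr392 and Olfr378, all in the cluster from Olfr20 to Olfr412. Olfr378 averaged 0.321% in KO and 0.266% in WT at P40, and 0.226% in Dnmt3a mi5 and 0.492% in WT at 4 months. Its adjusted p was 0.556 at P40 and 0.275 at 4 months.

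Genes beside the low clusters were not all low. Next to the cluster from Olfr338 to Olfr368, Ptgs1, which encodes a prostaglandin synthase, had mean levels of 2.35% in miR29 KO and 1.51% in WT libraries, and Pdcl on the other side had 0.870% in KO and 0.593% in WT. Beside that from Olfr20 to Olfr412, Spata22 had 2.58% in KO and 1.29% in WT, and Rap1gap2 had 1.80% in KO and 1.15% in WT. Beside that from Olfr24 to Olfr18, Mbd3l1 had 0.867% in KO and 0.443% in WT, and Zfp560 had 0.785% in KO and 0.711% in WT. TAATTA was in 30.5% of the 82 promoter windows listed for low clusters and in 17.6% of the 858 for other receptor genes. Median G and C content was 33.8% in the former and 35.3% in the latter. Whether TAATTA goes with mCH was not tested.

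**Figure D4:**
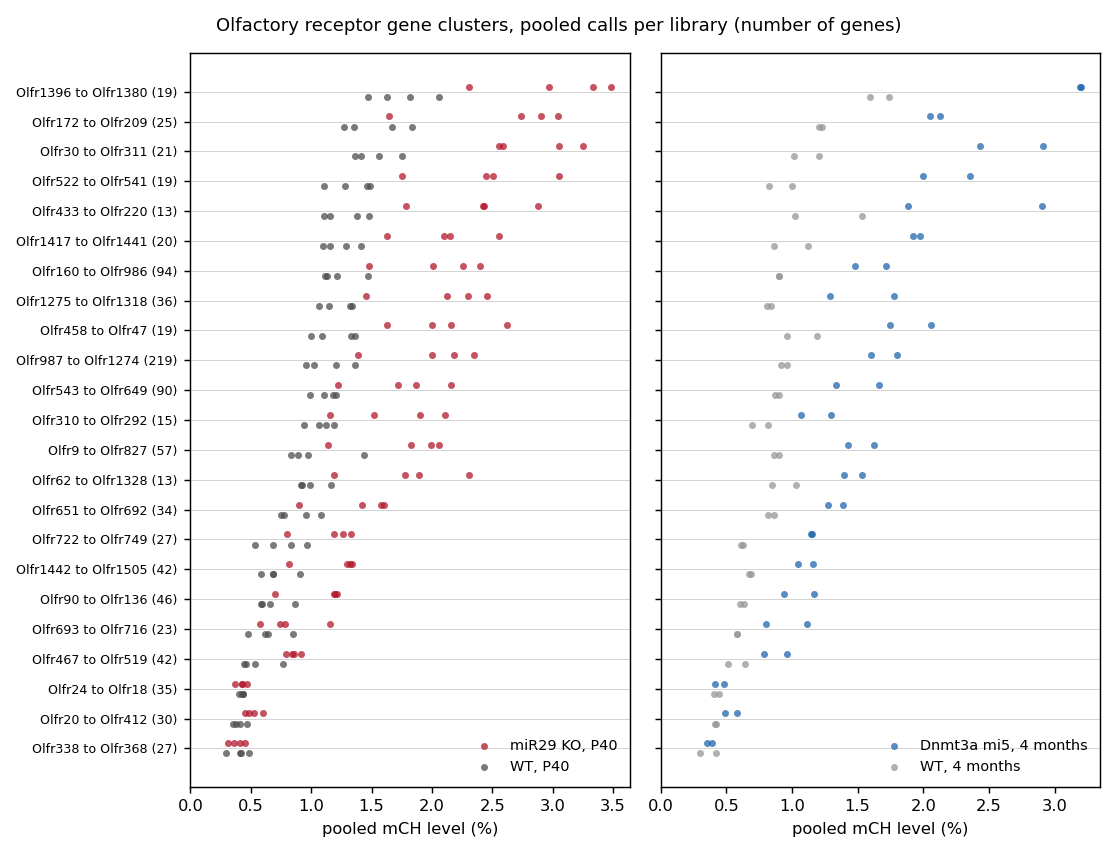
Pooled mCH level in percent (x axis) of 23 receptor gene clusters (y axis, with their number of genes), 1 point per library, P40 on the left and 4 months on the right, mutant above WT in each row. The 3 clusters at the bottom lie between 0.295% and 0.600% in all libraries, and above them mutant points move right of WT points.

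Among the 20 other clusters the ratio of miR29 KO to WT ran from 1.26 to 1.88, and that of Dnmt3a mi5 to WT from 1.52 to 2.41. KO and WT libraries were separate, with KO higher, in 12 of 23 clusters at P40, beside 57.1% of all genes taken singly. KO replicate 4 was the lowest KO library in 22 of the 23. Without it 20 were separate: the cluster from Olfr20 to Olfr412 and all of the 20 others except that from Olfr693 to Olfr716. At 4 months 21 were separate, the 20 others and the cluster from Olfr20 to Olfr412, beside 86.2% of all genes taken singly.

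The change in the mutants was compared directly by testing the log2 odds ratio in Dnmt3a mi5 minus that in miR29 KO, each against its own WT group. No receptor gene passed (0 of 111, as 0.0% of all genes; limma on log2(percent + 0.1) also called 0). Only Olfr630 passed 0.05 unadjusted, which does not show that the changes were equal. Age, library set and mutant cannot be told apart in this comparison. Between the WT groups, 4 months minus P40, 0 receptor genes were called and 0.131% of all genes rose. Age and library set cannot be told apart between these WT groups, which also differed in calls per library. Olfr181, Olfr330 and Olfr976, all lower at 4 months, passed 0.05 unadjusted. The median log2 odds ratio was -0.34 for receptor genes and -0.08 for all genes, with 82 of 111 receptor genes and 12917 of 19826 genes negative. The receptor median was -0.21 without WT P40 replicate 2 and also -0.21 without WT P40 replicate 3. The mean level was 0.893% in WT at 4 months and 1.11% in WT at P40, a ratio of 0.803, where all genes had 0.9495.

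The 2 WT 4-month libraries had 0.976% and 1.14% for Olfr330, below all 4 WT P40 libraries, and 1.15% and 0.830% for Olfr181, where WT P40 libraries had 1.67%, 2.48%, 2.01% and 1.46%. The adjusted p was 0.9998 for both in the quasi-binomial fit, and 0.0475 for Olfr330 with limma on log2(percent + 0.1). Across the 111 genes, WT P40 and WT 4-month levels had r = 0.75 and rho = 0.79, given as a description of genes that share libraries.

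Other gene groups with similar arrays or with no role in cortex were set beside the receptors. Vomeronasal receptors, which detect pheromones in the vomeronasal organ, had low levels: the median WT P40 level was 0.449% over 18 Vmn1r genes and 0.518% over 116 Vmn2r genes, against 1.15% over the 111 olfactory receptor genes. Over all genes 76.5% rose and 0.0454% fell at P40, and 58.8% rose at 4 months. Of the Vmn1r genes 6 rose and 1 (Vmn1r3) fell at P40 and 1 rose at 4 months, with median log2 odds ratios of -0.09 and 0.39. Of the Vmn2r genes 34 rose at P40 and 19 at 4 months, with medians of 0.13 and 0.20. Keratin genes, which also lie in arrays, had a median WT level of 2.09%, and 46 of 50 rose at P40 and 36 at 4 months, with medians of 0.77 and 1.005. Just 1 of 15 trace amine receptor genes and 1 of 35 bitter taste receptor genes had enough calls.

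**Figure D5:**
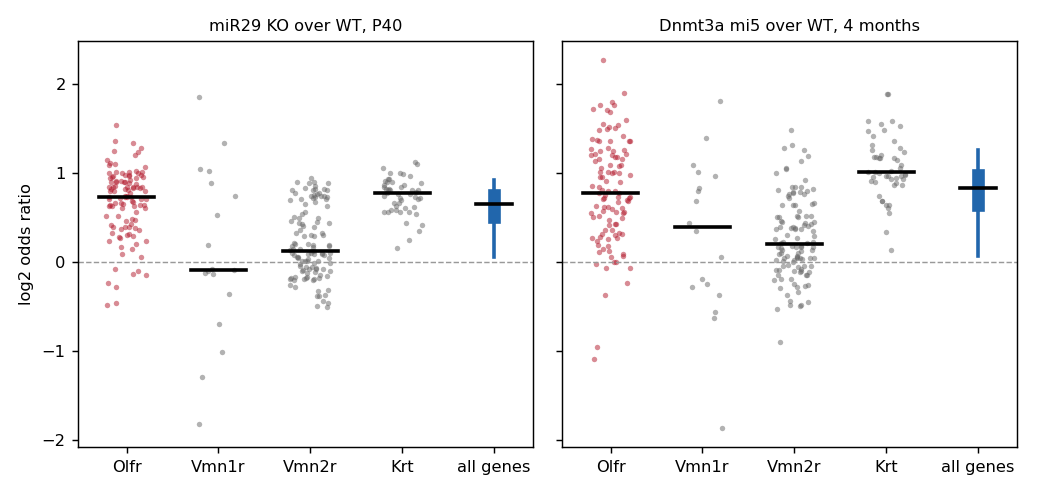
log2 odds ratio (y axis) of mutant over WT for single genes of 4 families (x axis), miR29 KO on the left and Dnmt3a mi5 on the right; bars are medians, and the blue bar gives the 5th, 25th, 75th and 95th percentiles of all genes. The olfactory receptor median is 0.73 on the left and 0.78 on the right, the Vmn2r median 0.13 and 0.20.

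Genes that act with the receptors were counted beside them, without a test against other genes. Of 15 tested genes of the olfactory signalling cascade (18 listed), all 15 rose at P40 and 12 at 4 months, where 76.5% and 58.8% of all genes rose, with median log2 odds ratios of 0.67 and 0.79. Cngb1, a subunit of the cyclic nucleotide-gated channel that opens after odour binding, had the smallest p at P40. It averaged 3.41 ± 0.536% in miR29 KO and 1.998 ± 0.237% in WT libraries (SD, n = 4 each; log2 odds ratio 0.81, adjusted p 5.71e-05). Slc12a2, the chloride importer of sensory neurons, had the smallest at 4 months, with 2.25% in Dnmt3a mi5 and 1.13% in WT (log2 odds ratio 1.01, adjusted p 0.00300). Gnal, the olfactory G protein subunit, which is also used in brain, averaged 2.70% in KO and 1.69% in WT libraries at P40.

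Of the 3 genes for proteins that carry receptors to the cell surface, 3 rose at P40 and Reep1 alone at 4 months (1.52% in Dnmt3a mi5 and 0.873% in WT). Of 16 genes listed for receptor choice, 12 rose at P40 and 11 at 4 months, beside 76.5% and 58.8% of all genes. Ebf4, of the Ebf transcription factors, had the smallest p at P40, with 3.04% in miR29 KO and 1.79% in WT. Lbr, the lamin B receptor that tethers heterochromatin to the nuclear envelope, had the smallest at 4 months, with 3.60% in Dnmt3a mi5 and 1.58% in WT libraries (log2 odds ratio 1.22, adjusted p 0.00300).

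The genes nearest the minimum of 500 calls, by their lowest library, were Olfr173, Olfr193 and Olfr1474 inside it and Olfr1217, Olfr1246 and Olfr495 outside it. Those inside had means of 3.72%, 2.11% and 0.712% in miR29 KO and 1.78%, 1.25% and 0.985% in WT libraries at P40. Those outside had 2.40%, 2.08% and 1.06% in KO and 0.629%, 0.826% and 0.516% in WT. Averaged over both ages, Olfr173 was also among the 3 genes of highest WT level, with Olfr56 and Olfr1414. At P40 Olfr1414 averaged 3.22 ± 0.835% in KO and 1.97 ± 0.431% in WT libraries (SD, n = 4 each). Olfr1414 rose at P40 (adjusted p 0.00193), though KO replicate 4, at 2.02%, lay inside the WT range.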

How the data were processed

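Cortical DNA carrying a spike of unmethylated lambda DNA was bisulfite sequenced, per the labels' protocols. Reads were processed with BSMAP on mm9, per the submitters' processing notes, with no version given. The authors deposited, for 36672 RefSeq rows per library, methylated non-CG calls as a whole-number count and total non-CG calls as an expected count, whole for 35.7% to 62.2% of rows. The sources used here do not give its derivation, and it was rounded. The 1395 rows with repeated identifiers were left out, and the row with most calls stood for its gene. Symbols, gene order and class came from the RefSeq table of GRCm38.p6, and 300 of the deposited rows found no symbol in it.

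For each of 19826 genes with at least 500 calls in all 12 libraries, methylated and total counts were fitted by quasi-binomial logistic regression on group. Gene dispersions were moderated by limma 3.58.1 (squeezeVar, trend and robust) in R 4.3.3, p-values were two-sided and Benjamini-Hochberg adjusted over all genes, and 0.05 was the threshold. Median overdispersion was 5.13 for all genes and 2.67 for receptor genes. The model was tried on simulated data in which few genes were changed, whereas here most genes rose. That trial does not show how the model behaves when most genes change. Python 3.11.15, numpy 2.4.6, pandas 2.3.3 and matplotlib 3.10.9 did the rest.

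The receptor genes, gene lists, tests and alternatives were chosen with earlier results of these data known. Named genes were the 8 largest rises per mutant among called genes with separate libraries, listed receptors, the 5 with most calls, the extremes of WT level and those nearest the minimum. Olfr1, Olfr18, Olfr20, Olfr288, the clusters and the printed promoters were chosen after values were seen.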

Additional observations from a re-analysis of the deposited data

Results flagged for a closer look

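A library far from the others of its group was found in 4 of 106 groups looked at, where chance gives about 1 in 20. In the miR29 KO group, replicate 4 was the low library in 3 of them. For Olfr943 it had 1.158%, with the other 3 between 1.992% and 2.076%. For the cluster from Olfr90 to Olfr136 it had 0.7041%, with the others between 1.186% and 1.212%. For the cluster from Olfr1442 to Olfr1505 it had 0.8141%, with the others between 1.297% and 1.341%. The same library had the lowest KO level in 80 of the 111 receptor genes and over all genes. In the WT P40 group, Olfr330 had a high library at 2.335%, with the others between 2.002% and 2.038%. The causes were not tested.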

How the results depend on the processing

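The difference in mean receptor gene level kept its sign, and moved by less than the SD of the mutant group, in all alternatives run for both mutants; without miR29 KO replicate 4 at P40, and in some alternatives at 4 months, it moved by more than the SD of the WT group. At P40 the count of 71 rising genes was 344 of 1095 with no minimum of calls, beside 15666 of all 23366 genes. It was 1 after centring each library on its median gene, beside 207 of all 19826. Leaving out 1 library gave 58 to 72. The count of 0 falling genes became 1 with no minimum (Olfr297), and 1 (Olfr18) after centring, after subtracting the 1st percentile and without moderation. At 4 months the count of 24 was 51 with no minimum, beside 11360 of all 23366 genes. It was 49 with only the 4 libraries compared, beside 14551 of all 19826 genes, and 0 after centring, as over all genes. With limma on log2(percent + 0.1), log2(percent + 0.5) and percent it was 52, 49 and 41, beside 14566, 14591 and 14339 of all 19826 genes. Leaving out 1 library gave 3 to 39. Falling genes went to 1 (Olfr378) on each of the 3 limma scales, and age calls to 1 (Olfr330) with log2(percent + 0.1). The 12 separate clusters at P40 became 20 without miR29 KO replicate 4. Centring reversed Olfr1033 (-0.021 at P40, -0.070 at 4 months), Olfr943 (-0.00261 at P40) and Olfr78 (-0.11 at 4 months), none of them called. The cause was not tested beyond what each setting removes.

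Samples with the same replicate number did not clearly deviate together at P40 (r = -0.0106, -0.0395, -0.0541 and 0.109). Pairs of different number there ran from -0.136 to 0.206. At 4 months r was -0.0886, but with 2 libraries per group the deviations mirror each other, so that value cannot show pairing. Whether the numbers pair samples is not settled by these values. With a replicate block 70 receptor genes rose at P40 and 35 at 4 months, beside 15224 and 12339 of all 19826 genes, and 0 differed between mutants. With only P40 libraries covering Y-linked genes, 66 receptor genes rose, beside 13411 of all genes. Of the 37 genes with fewest calls 4 rose at 4 months, and of the 37 with most 15; the part of depth in these counts was not tested.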

Other observations

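Pooled over all 1095 receptor genes, mCH was 1.73 ± 0.331% in miR29 KO and 1.04 ± 0.143% in WT libraries at P40 (SD, n = 4 each). At 4 months it was 1.62% and 1.49% in Dnmt3a mi5 and 0.868% and 0.894% in WT libraries. Joining clusters across at most 2 or at most 10 other genes, or pooling only genes under the minimum of calls, again gave 3 clusters with a WT P40 level under 0.5%. These settings were chosen after seeing the data.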
